A study of Drosophila melanogaster with 6 samples.

Results

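Blood cells of the fly, the hemocytes, and the sheets of extracellular matrix to which they contribute are followed here through 10 genes whose transcripts were measured in heads of *Drosophila melanogaster*. The genes were chosen by name: *srp*, *NimC1*, *eater*, *Hml*, *PPO1*, *Pxn*, *vkg*, *Col4a1*, *LanB1* and *Ppn*. All 10 had a probe set assigned to a single gene, 1 probe set each, among 8516 genes on the table. They were measured in 3 genotypes with 2 arrays each, 1 from flies collected at ZT3 and 1 at ZT15 (Zeitgeber time, hours after lights-on, so that ZT3 is day and ZT15 night). Each array holds the RNA of 30 heads.

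The genotypes are labelled control, *cbt* over-expression and *cbt* RNAi. The protein made by *cbt* (*cabut*) is a transcription factor with zinc fingers. The series' design text calls the controls cyo, the usual symbol of a balancer of the second chromosome, a rearranged chromosome that carries dominant markers. The driver of the transgenes, the lines, the sex and the age of the flies are not given in the sources used here, and neither is whether the altered genotypes carry that balancer.

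Hemocytes circulate in the open body cavity or sit on tissues. In the adult most of them are plasmatocytes, macrophage-like cells that engulf microbes and dead cells, while crystal cells hold the enzymes of melanization. Plasmatocytes and the fat body also secrete collagen IV, laminin and other proteins that assemble into basement membranes around muscles, glia and the gut. In a whole head, fewer cells of a type and less RNA per cell cannot be told apart, so the values below are levels in head RNA and not counts of cells.

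Signals are log2 probe set values, in which a difference of 1 is a 2-fold difference. They are compared only between arrays for the same gene. The array medians ran from 7.35 to 7.42. The *cbt* probe set itself went against the labels: in control it read 10.21 at ZT3 and 10.72 at ZT15, in over-expression-labelled heads 8.98 and 9.90, and in RNAi-labelled heads 10.99 and 11.05. Genotypes are therefore called by their labels, and no difference is tied to a level of *cbt*. The over-expression-labelled ZT3 array stood apart in transcripts of the digestive tract: the mean log2 signal of 7 such markers was 8.50 on it and 5.17 to 6.03 on the other 5 arrays, and all 7 were highest there. Of the 10 genes followed here, 7 were highest on this array too, and 9 on either over-expression-labelled array. Differences at ZT15 alone, which do not use the over-expression-labelled ZT3 array, are given below for the genes named as changed between the over-expression-labelled genotype and control. They set 1 array against 1 and have no test. Intervals and adjusted p-values printed beside them belong to the differences over both times. Nothing in the labels states that arrays of 1 genotype were separate fly cultures, so p-values measure only the spread among these 6 arrays, which may be technical.

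**Figure D1:**
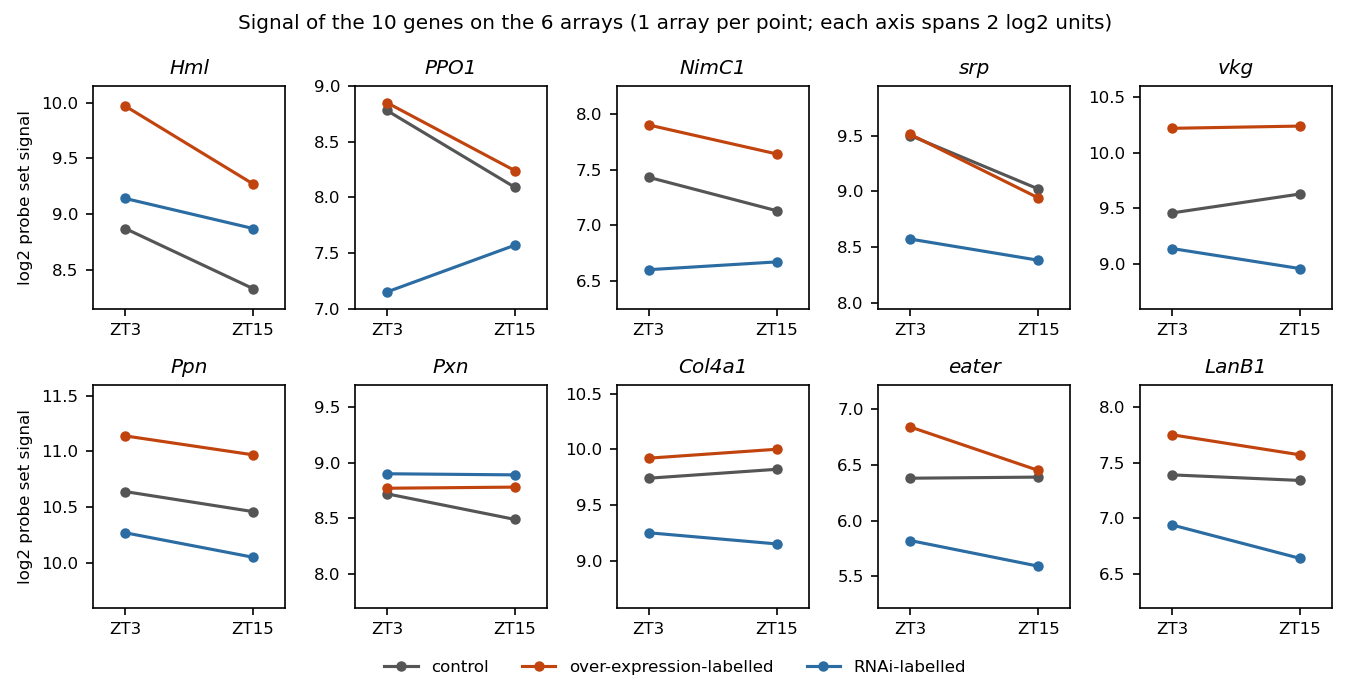
Log2 probe set signal of the 10 genes (vertical axes, each spanning 2 log2 units) on the ZT3 and ZT15 array of each genotype, 1 point per array. The RNAi-labelled points are the lowest at both times in 8 panels and not in *Hml* and *Pxn*; those of *Pxn* lie highest.

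Of the hemocyte identity genes, *srp* stood lower in the RNAi-labelled heads than in the others. *srp* (*serpent*) encodes a GATA transcription factor needed to make hemocytes and fat body. Its signal at ZT3 and ZT15 was 9.50 and 9.02 in control, 9.51 and 8.94 in over-expression-labelled and 8.57 and 8.38 in RNAi-labelled heads. Both RNAi-labelled arrays lay below every other array, while control and over-expression-labelled arrays overlapped. Against control, *srp* fell by 0.78 on the log2 scale in the RNAi-labelled genotype (1.72-fold; SE 0.12, 2 arrays against 2, adjusted p = 0.0144). The over-expression-labelled genotype differed from control by -0.03, with a 95% interval of -0.33 to 0.26.

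The phagocytosis receptor genes *NimC1* and *eater* were lowest on the RNAi-labelled arrays and highest on the over-expression-labelled arrays. *NimC1*, of the Nimrod family, encodes the plasmatocyte surface protein recognised as the P1 antigen. It read 7.43 and 7.13 in control, 7.90 and 7.64 in over-expression-labelled and 6.60 and 6.67 in RNAi-labelled heads, with no overlap between any pair of genotypes. *NimC1* fell by 0.65 (1.57-fold) in the RNAi-labelled genotype against control (adjusted p = 0.0264). Over-expression-labelled minus control was 0.49 (interval 0.18 to 0.80), which did not pass over all genes (adjusted p = 0.0584).

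*eater* encodes a transmembrane receptor with EGF-like repeats that binds bacteria. Its signal was 6.38 and 6.39 in control, 6.84 and 6.45 in over-expression-labelled and 5.82 and 5.59 in RNAi-labelled heads. Its mean of 6.25 lay below the signal filter of 6.79, so it is the 1 gene of the 10 without a test. All genotypes were apart, the control and over-expression-labelled ZT15 arrays by 0.06 only. RNAi-labelled minus control was -0.56 at ZT3 and -0.81 at ZT15, and over-expression-labelled minus control was 0.46 at ZT3. When all genes on the table were fitted with no filter, the RNAi-labelled difference of -0.68 passed (adjusted p = 0.0435) and the over-expression-labelled difference of 0.26 did not (adjusted p = 0.261).

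*Hml* and *PPO1*, both of clotting and melanization, did not share 1 pattern. *Hml* (*Hemolectin*) encodes a large clotting protein secreted by plasmatocytes and widely used to mark them. It read 8.87 and 8.33 in control, 9.97 and 9.27 in over-expression-labelled and 9.14 and 8.87 in RNAi-labelled heads. Within each time the control array was the lowest and the over-expression-labelled array the highest, and the over-expression-labelled arrays did not overlap with the others. *Hml* rose 2.03-fold in the over-expression-labelled genotype against control (log2 difference 1.02, SE 0.13, adjusted p = 0.0126), by 1.11 at ZT3 and 0.94 at ZT15. RNAi-labelled minus control was 0.40 (interval 0.09 to 0.72, adjusted p = 0.0774), on the opposite side from the receptors and *srp*.

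*PPO1* encodes a prophenoloxidase, the zymogen of the enzyme that makes melanin, which crystal cells store. It read 8.78 and 8.09 in control, 8.85 and 8.24 in over-expression-labelled and 7.15 and 7.57 in RNAi-labelled heads. Both RNAi-labelled arrays lay below every other array, with differences from control of -1.63 at ZT3 and -0.52 at ZT15. *PPO1* fell 2.11-fold in the RNAi-labelled genotype (log2 difference -1.08, SE 0.27, adjusted p = 0.0473). Its SE was the widest of the 9 genes tested, and the call was lost with no filter, with no intensity trend, with the arrays quantile normalized again and with centring on ribosomal protein genes (adjusted p = 0.073, 0.0513, 0.0593 and 0.0568).

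The collagen IV genes *vkg* and *Col4a1* were both lower in RNAi-labelled heads, and *vkg* alone of the pair rose in over-expression-labelled heads. *Col4a1* encodes the alpha1 chain and *vkg* (*viking*) the alpha2 chain, which assemble into 1 trimeric collagen, the main network of basement membranes. In RefSeq's list of genes of the Release 6 assembly they are direct neighbours on chromosome arm 2L. *vkg* read 9.46 and 9.63 in control, 10.22 and 10.24 in over-expression-labelled and 9.14 and 8.96 in RNAi-labelled heads. *Col4a1* read 9.74 and 9.82 in control, 9.92 and 0.08 more in over-expression-labelled and 9.25 and 9.15 in RNAi-labelled heads. For both genes the 3 genotypes did not overlap, with over-expression-labelled arrays highest and RNAi-labelled arrays lowest.

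Against control, *vkg* fell by 0.50 (adjusted p = 0.0398) and *Col4a1* fell by 0.58 (adjusted p = 0.0217) on the log2 scale in the RNAi-labelled genotype. In the over-expression-labelled genotype *vkg* rose by 0.68 (1.61-fold, interval 0.40 to 0.97, adjusted p = 0.0247), by 0.62 at ZT15 alone. *Col4a1* lay 0.19 above control there, with an interval of -0.06 to 0.44 (adjusted p = 0.247). Whether the pair differ in their shift was not tested. The call of *vkg* in RNAi-labelled heads was lost with no filter (adjusted p = 0.0515) and with centring on ribosomal protein genes (adjusted p = 0.0558), and so was that of *Ppn*, described next, with that centring (adjusted p = 0.0646). A further probe set carries the symbol *veg*, which RefSeq lists as a synonym of *vkg*, under a gene ID that has no entry in that table. It was not counted among the 10, and it differed from control by 0.28 in the over-expression-labelled and 0.08 in the RNAi-labelled genotype, neither of which passed (adjusted p = 0.115 and 0.609).

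*LanB1* and *Ppn*, further basement membrane genes, had the same order of genotypes. *LanB1* encodes the beta chain of laminin, the heterotrimer that starts basement membrane assembly. Its signal was 7.39 and 7.34 in control, 7.75 and 7.57 in over-expression-labelled and 6.94 and 6.64 in RNAi-labelled heads. None of the genotypes overlapped. It fell by 0.58 in the RNAi-labelled genotype (1.49-fold, adjusted p = 0.0241). In the over-expression-labelled genotype *LanB1* lay 0.30 above control (interval 0.04 to 0.56, adjusted p = 0.115), and 0.23 above it at ZT15 alone.

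*Ppn* (*papilin*) encodes a large proteoglycan-like matrix protein made by hemocytes. It read 10.64 and 10.46 in control, 11.14 and 10.97 in over-expression-labelled and 10.27 and 10.05 in RNAi-labelled heads. No genotypes overlapped within *Ppn*, and its differences at the 2 times were close to each other, 0.50 and 0.51 in the over-expression-labelled and -0.37 and -0.41 in the RNAi-labelled genotype. It rose by 0.50 in the former (SE 0.09, adjusted p = 0.0275) and fell by 0.39 in the latter (SE 0.09, adjusted p = 0.0391).

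*Pxn* varied least. *Pxn* (*Peroxidasin*) encodes a matrix peroxidase known for cross-linking collagen IV. It read 8.72 and 8.49 in control, 8.77 and 8.78 in over-expression-labelled and 8.90 and 8.89 in RNAi-labelled heads. Its whole range was 0.41 log2 units, where the median range over the 5489 genes tested was 0.51 and the other 9 of the 10 genes ranged over 0.86 to 1.70. The RNAi-labelled arrays were the highest and the control arrays the lowest. *Pxn* lay 0.29 above control in the RNAi-labelled genotype (interval 0.04 to 0.54, adjusted p = 0.0981) and 0.17 above it in the over-expression-labelled genotype (interval -0.08 to 0.42, adjusted p = 0.286).

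**Figure D2:**
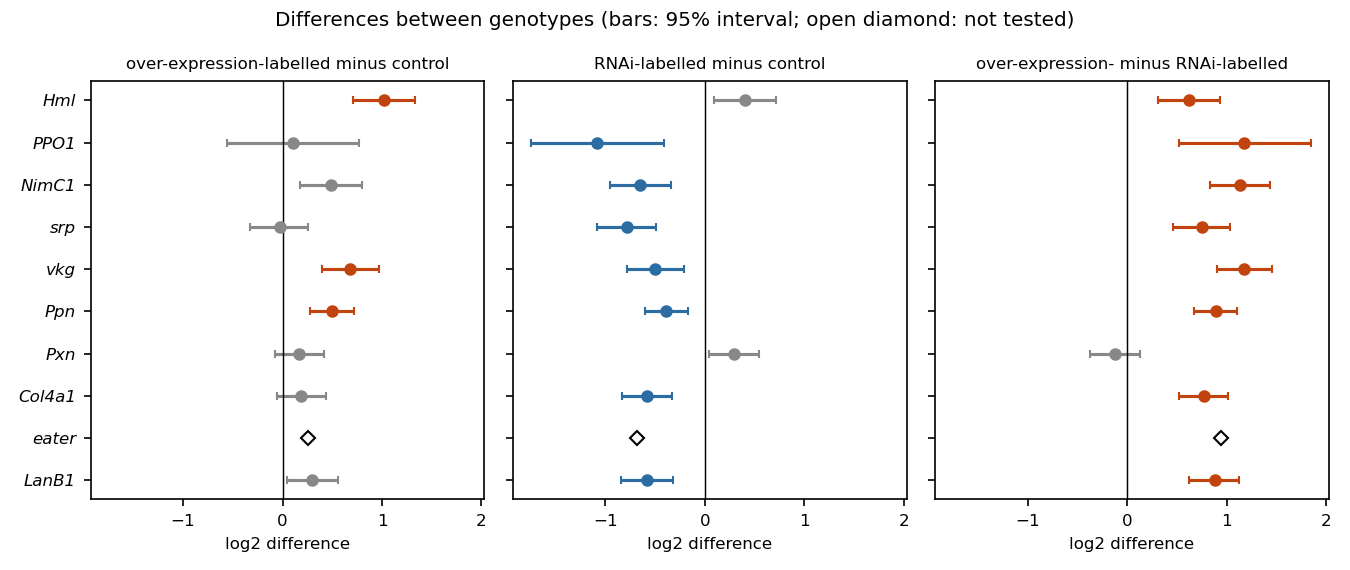
Log2 differences between genotypes for the 10 genes (horizontal axes), each the mean over both times, with 95% intervals from the fit over all 6 arrays; coloured points have an adjusted p under 0.05 (red higher, blue lower), grey points do not, and open diamonds mark *eater*, which was not tested. In the right panel the 8 coloured genes and *eater*, at 0.94, lie to the right of 0, and *Pxn* lies at -0.12.

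Counted over the 9 genes tested, 3 rose and 0 fell in the over-expression-labelled genotype against control, *Hml*, *vkg* and *Ppn*. Over all 5489 genes tested, 6.30% rose and 5.27% fell in that comparison. The median log2 difference was 0.30 for the 9 genes and -0.01 for all genes. Against control, 7 of the 9 fell in the RNAi-labelled genotype and 0 rose, beside 10.8% of all genes that fell and 6.25% that rose, with a median of -0.58 beside -0.00. Without overlap between the arrays, 7 of the 9 stood higher in the over-expression-labelled genotype (26.3% of all genes did), and 7 stood lower (31.0%) and 2 higher (30.3%) in the RNAi-labelled genotype. Of these 2, *Hml* was apart by less than the rounding, with 8.87 on both the RNAi-labelled ZT15 and the control ZT3 array. Both comparisons use the same 2 control arrays, so their directions are not independent of each other, and the genes were chosen with results of these arrays known.

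These counts rest on the control arrays. Without the control ZT3 array or without the control ZT15 array, none of the 9 passed by limma in either comparison. The log2 differences of the 3 genes in the over-expression-labelled genotype ran from 0.50 to 1.05 without the control ZT3 array. They were at least 0.51 without the control ZT15 array. Those of the 7 genes in the RNAi-labelled genotype ran from -0.78 to -0.39 and from -1.38 to -0.38 in the same order. Without the over-expression-labelled ZT3 array *Hml* was the 1 of the 3 that passed. Without the RNAi-labelled ZT3 array 1 of the 7 passed, *Col4a1*, and without the RNAi-labelled ZT15 array 3 passed, *NimC1*, *PPO1* and *srp*. When time was left out of the model, *vkg* was the 1 gene that passed in the first comparison and *Col4a1* in the second. Each fit with an array left out leaves 1 array in a genotype and takes it to vary like the others. No log2 difference that passed changed its sign in these fits.

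The over-expression-labelled and RNAi-labelled genotypes, compared directly, differed for 8 of the 9 genes, all higher in the over-expression-labelled heads. The share of all genes higher there was 18.5%, and of those lower 17.6%. Arrays did not overlap for the same 8 genes (33.9% of all genes) or, lower, for *Pxn* (36.8%). The largest differences were those of *PPO1* and *vkg*, each 2.27-fold (log2 1.18; adjusted p = 0.0219 and 0.00192), and *NimC1*, 2.2-fold (1.14, adjusted p = 0.0027). *Ppn* differed by 0.89 (adjusted p = 0.00199), *LanB1* by 0.88 (adjusted p = 0.0036), *Col4a1* by 0.77 (adjusted p = 0.00458), *srp* by 0.75 (adjusted p = 0.0079) and *Hml* by 0.62 (adjusted p = 0.0162). *Pxn* differed by -0.12 (interval -0.37 to 0.13), and *eater*, not tested, by 0.94.

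In this direct comparison the differences at ZT15 alone were 1.28 for *vkg*, 0.97 for *NimC1*, 0.94 for *LanB1*, 0.92 for *Ppn*, 0.86 for *Col4a1*, 0.66 for *PPO1*, 0.56 for *srp* and 0.40 for *Hml*. Those of *Hml*, *PPO1*, *NimC1* and *srp* were smaller at ZT15 than at ZT3, where they were 0.84, 1.70, 1.30 and 0.94. Those of *vkg*, *Col4a1*, *LanB1* and *Ppn* were larger at ZT15 than at ZT3 (1.08, 0.68, 0.81 and 0.86). With 1 array per genotype and time, such differences between times have no test. With 1 array left out in turn, 6 to 8 of the 8 genes passed. When the ZT3 array of the over-expression-labelled genotype was left out, *Hml* and *PPO1* did not pass (adjusted p = 0.0731 and 0.0741), nor *Hml* without the RNAi-labelled ZT3 array (adjusted p = 0.0904). With time left out of the model *Hml* and *srp* did not pass (adjusted p = 0.155 and 0.0674).

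By place in the genome, 5 of the 10 genes lie on the second chromosome (*vkg*, *Col4a1*, *LanB1* and *NimC1* on 2L, *PPO1* on 2R) and 5 on the third (*Hml* and *Pxn* on 3L, *srp*, *Ppn* and *eater* on 3R). All 5 on the second chromosome fell in the RNAi-labelled genotype against control, beside 11.8% of the 2156 genes tested on that chromosome. Of the 4 tested on the third chromosome 2 fell, beside 10.9% of 2377. In the over-expression-labelled genotype against the same controls 1 of 5 rose on the second chromosome (7.37% of genes there) and 2 of 4 on the third (6.10%), and none of the 9 fell. A second chromosome balancer in the controls and the transgenes of the altered genotypes cannot be told apart here.

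Between night and day none of the 9 genes passed by limma, where 1.51% of all genes did. At an unadjusted p under 0.05 there were 3 of them, *Hml*, *srp* and *Ppn*, beside 16.4% of all genes. *Hml* stood lower at ZT15 than at ZT3 in all 3 genotypes, with differences of -0.53 in control, -0.70 in over-expression-labelled and -0.27 in RNAi-labelled heads (mean -0.50, interval -0.76 to -0.25, adjusted p = 0.0987). *srp* stood lower at ZT15 in all 3 as well, with a mean difference of -0.42 (interval -0.66 to -0.18, adjusted p = 0.132). *Ppn* differed by -0.18 in control, -0.17 in over-expression-labelled and -0.22 in RNAi-labelled heads (adjusted p = 0.278).

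The collagen IV genes stood near 0 between the times, *vkg* at 0.01 (interval -0.23 to 0.24) and *Col4a1* at 0.02 (interval -0.18 to 0.22). *PPO1* differed in sign, at -0.69 in control and -0.61 in over-expression-labelled heads but 0.43 in RNAi-labelled heads. Over the 3 genotypes its mean difference was -0.29 with an interval of -0.84 to 0.25; without the RNAi-labelled ZT15 array *PPO1* passed at -0.65 (adjusted p = 0.0491). No gene of the 9 had ZT15 and ZT3 arrays that did not overlap, where 8.20% of all genes had.

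**Figure D3:**
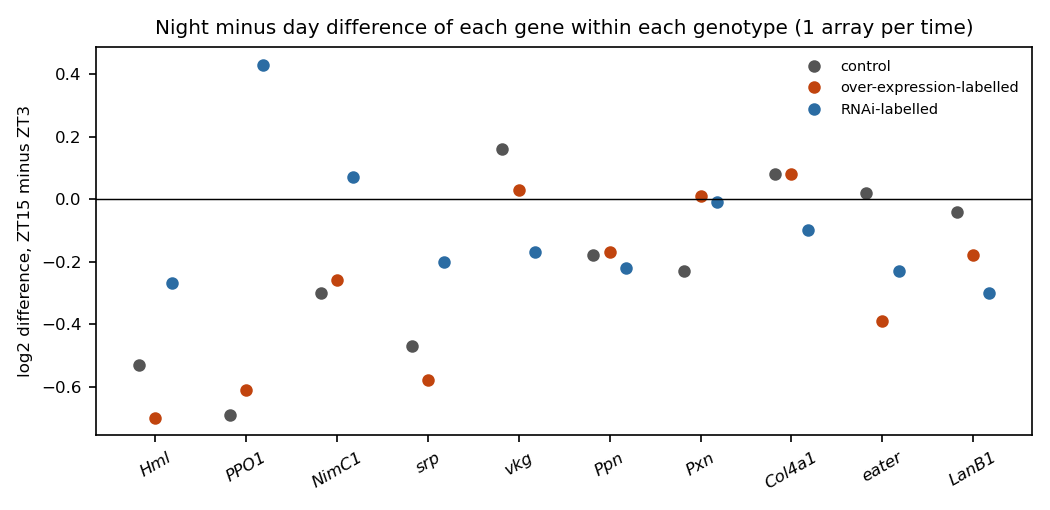
Log2 difference of the ZT15 array minus the ZT3 array (vertical axis) for each of the 10 genes within each genotype, 1 array per time. *Hml* and *srp* lie below 0 in all 3 genotypes, and *PPO1* lies at 0.43 in the RNAi-labelled genotype and at -0.69 and -0.61 in the other 2.

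Other genes of hemocytes and of the matrix were taken from 6 lists, which were drawn up, like the 10 genes, with earlier results of these data known. Their counts stand beside the shares of all genes given above, 6.30% higher and 5.27% lower in the over-expression-labelled and 6.25% higher and 10.8% lower in the RNAi-labelled genotype against control. Of 13 other basement membrane and matrix genes 10 had a probe set here, and all 10 were tested. Of these 3 fell against control in the RNAi-labelled genotype and 0 rose, with a median of -0.27: *wb* (-1.14, adjusted p = 0.0442) and *LanA* (-0.87, adjusted p = 0.0188), both laminin alpha chain genes, and *Tig* (-0.71, adjusted p = 0.00737), which encodes the integrin ligand tiggrin. *LanA* read 7.83 and 7.94 in control, 8.48 and 8.19 in over-expression-labelled and 7.23 and 6.79 in RNAi-labelled heads. *LanB2*, the laminin gamma chain gene, named after its values were seen because it completes the trimer with *LanA* and *LanB1*, differed by -0.23 without passing (adjusted p = 0.26).

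In the over-expression-labelled genotype 1 of these 10 matrix genes fell and 0 rose (median 0.11), *Loxl2*, a lysyl oxidase gene, at -1.41 (-1.31 at ZT15, adjusted p = 0.0282). Between the altered genotypes 5 stood higher and 1 lower in over-expression-labelled heads (median 0.43), beside 18.5% and 17.6% of all genes. Among them were *LanA* at 1.33, *Loxl2* at -1.32 and *wb* at 1.19 (adjusted p = 0.0027, 0.013 and 0.0228). Of 4 genes of collagen folding and secretion tested, 0 passed in the over-expression-labelled genotype. Against control 1 fell in the RNAi-labelled genotype, *Plod*, which encodes the lysyl hydroxylase of collagen, at -0.43 (adjusted p = 0.0383). Of 9 integrin and matrix receptor genes tested, 1 passed in both comparisons with control, *scb*, an integrin alpha subunit gene, at 0.65 in the over-expression-labelled (0.58 at ZT15, adjusted p = 0.0382) and -0.59 in the RNAi-labelled genotype (adjusted p = 0.0388). *scb* read 6.87 and 7.03 in control, 7.59 and 7.61 in over-expression-labelled and 6.49 and 6.22 in RNAi-labelled heads, without overlap. Without the over-expression-labelled arrays its mean would lie below the filter of 6.79, and both of its calls against control were lost with no filter.

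Of 28 other hemocyte genes 22 had a probe set here, and 13 were tested. Against control 3 rose and 0 fell in the over-expression-labelled genotype (median 0.21): *Ance*, a peptidase gene, at 0.52, the thioester protein gene *Tep4* at 0.50 and the Nimrod gene *NimB2* at 0.40 (adjusted p = 0.0413, 0.0321 and 0.0454). At ZT15 alone these differences were 0.57, 0.43 and 0.35. The RNAi-labelled genotype had 3 that fell and 0 that rose (median -0.25): *Tep4* at -1.16 (2.24-fold, adjusted p = 0.00374), *NimB3* at -0.96 (adjusted p = 0.026) and *Nplp2* at -0.25 (adjusted p = 0.0216). *Tep4* read 10.92 and 10.64 in control, 11.49 and 11.06 in over-expression-labelled and 9.75 and 9.48 in RNAi-labelled heads. Among the 9 below the filter were the defining hemocyte gene *He*, at 3.59 to 4.17 on all arrays, and *lz*, the crystal cell transcription factor gene, at 5.50 to 6.14. *PPO2*, the other crystal cell prophenoloxidase gene, named after its values were seen, differed by -0.79 from control in RNAi-labelled heads without passing (adjusted p = 0.0584).

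Of 12 clotting and melanization genes tested, 8 rose and 0 fell in the over-expression-labelled genotype against control, with a median of 0.62. *Spn28Dc*, a serpin gene that limits phenoloxidase activity, rose 3.31-fold (log2 1.73, adjusted p = 0.00257), from 7.65 and 7.24 in control to 9.25 and 9.10. *SPE*, the protease that activates the Toll ligand, rose by 1.16 (adjusted p = 0.0162), *Hayan*, a protease of the melanization cascade, by 0.78 (adjusted p = 0.0321) and *Spn27A*, a serpin that inhibits it, by 0.74 (adjusted p = 0.0132). At ZT15 alone *Spn28Dc* differed by 1.86, *SPE* by 1.40, *Hayan* by 0.76 and *Spn27A* by 0.80. Against control 1 of the 12 fell in the RNAi-labelled genotype, the protease gene *psh*, at -0.48 (adjusted p = 0.0275), and the median was -0.22. Of the GATA factor and cofactor genes 2 were tested; *Chi*, a cofactor of LIM and GATA factors, rose by 0.40 in the RNAi-labelled genotype (adjusted p = 0.0341) and differed by 0.06 in the other. Between the times 0 of the 50 genes tested in these 6 lists passed by limma (1.51% of all genes did), and 12 had an unadjusted p under 0.05 (16.4% of all genes). The 13 calls against control in over-expression-labelled heads and the 10 in RNAi-labelled heads rest on the control arrays too. With either control array left out, none of them was kept. Without the over-expression-labelled ZT3 array 4 of the 13 passed, *SPE*, *Spn27A*, *Spn28Dc* and *grass*, another protease gene of the cascade. Of the 10, 5 passed without the RNAi-labelled ZT3 array and 4 without the RNAi-labelled ZT15 array, *Tep4*, *Tig* and *NimB3* in both.

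**Figure D4:**
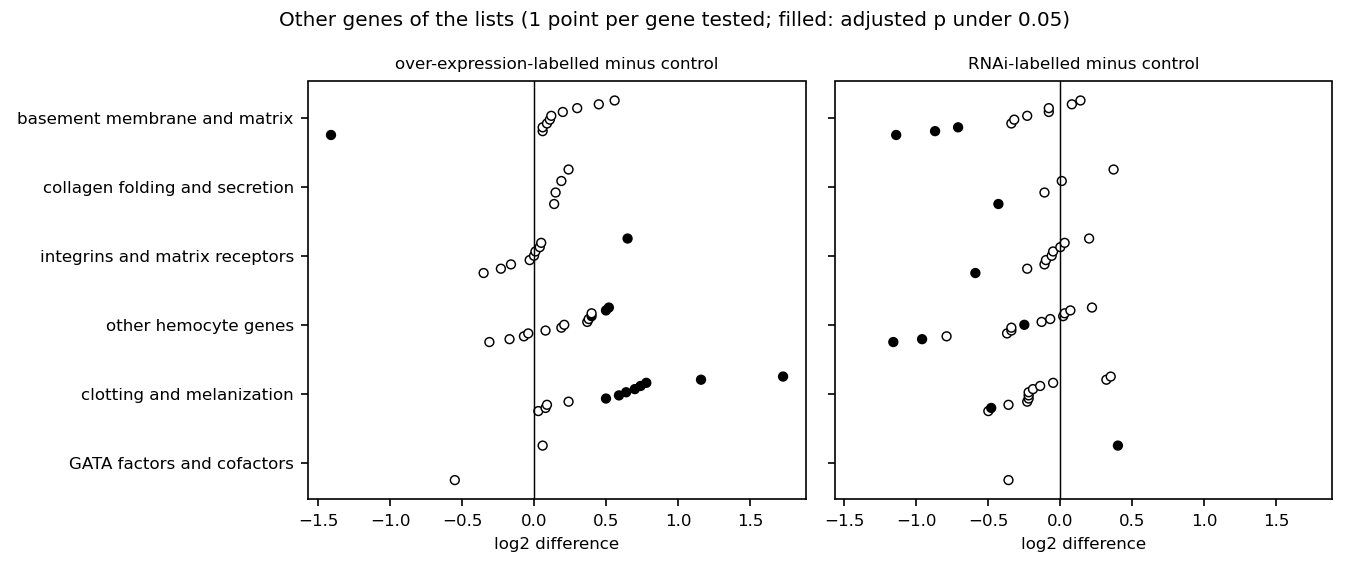
Log2 differences from control (horizontal axes) of the tested genes of 6 further lists, 1 point per gene, filled where the adjusted p was under 0.05. On the left 8 of 12 clotting and melanization genes are filled to the right of 0, and on the right 3 of 10 basement membrane and 3 of 13 other hemocyte genes are filled to the left of it.

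The genes whose profile over the 6 arrays was most like the mean of the 9 genes, among 1424 others with an SD of at least 0.3, were *CG31548* (Pearson's r 0.9995), *Sr-CI* (0.9939), *MFS16* (0.9937), *CG9691* (0.9926) and *CG7079* (0.9922). These are descriptions over 6 arrays that all genes share. *Sr-CI*, a scavenger receptor gene of the other hemocyte list, read 7.71 and 7.42 in control, 8.14 and 7.79 in over-expression-labelled and 7.23 and 7.18 in RNAi-labelled heads. Over-expression-labelled minus RNAi-labelled was 0.76 (adjusted p = 0.00543), and its differences from control, 0.40 and -0.37, did not pass (adjusted p = 0.0667 and 0.0666).

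Markers of other cell types in the head moved beside these genes. The mean log2 signal of the 10 genes was 8.69 and 8.47 in control, 9.09 and 8.81 in over-expression-labelled and 8.18 and 8.08 in RNAi-labelled heads. Over 7 of 9 neuron markers it was 9.92 and 9.99 in control, 9.26 and 9.56 in over-expression-labelled and 10.05 and 9.86 in RNAi-labelled heads. Of these 7, 4 fell in the over-expression-labelled genotype against control and 0 rose, beside 5.27% and 6.30% of all genes. They were *VAChT* at -0.84, *cac* at -0.65, *cpx* at -0.57 and *Snap25* at -0.51 (adjusted p = 0.0369, 0.0435, 0.0223 and 0.0334). At ZT15 alone these differences were -0.74, -0.70, -0.65 and -0.53, and without the ZT3 array that stood apart none of the 4 passed by limma (adjusted p = 0.115, 0.164, 0.0667 and 0.139). Over 4 of 7 photoreceptor markers the mean was 9.85 and 10.10 in control and 10.39 and 10.60 in RNAi-labelled heads. Of these 4, 3 rose there against control and 0 fell, beside 6.25% and 10.8% of all genes, and the other differed by -0.06. The 3 were *eys*, from 7.07 and 7.68 to 8.42 and 8.34, *trpl* by 0.68 and *gl* by 0.47 (adjusted p = 0.0373, 0.0487 and 0.0243). The part of these cell types in the differences above was not tested.

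Over 7 of 9 fat body markers the mean log2 signal was 13.49 to 13.53 in control, 13.58 to 13.65 in over-expression-labelled and 13.52 to 13.53 in RNAi-labelled heads. The median difference of these markers from control was -0.07 in the over-expression-labelled genotype. The fat body also makes collagen IV and expresses *srp*. Of these 7 genes *Tsf1*, an iron carrier gene, rose by 1.13 in the over-expression-labelled genotype (1.09 at ZT15, adjusted p = 0.00223), and none passed in the RNAi-labelled genotype with the brightest probe set of each gene. With the mean of its probe sets, which disagree, *Tsf1* went there from 0.23 to 1.43 and passed (adjusted p = 0.00466). Glia markers (6 of 7) read 10.07 to 10.28 on the control and over-expression-labelled arrays and 9.97 to 9.98 on the RNAi-labelled arrays, and single genes moved both ways. In over-expression-labelled heads *Mdr65* rose by 0.79 (0.61 at ZT15) while *nrv2* and *Gs2* were at -0.66 and -0.30 (-0.66 and -0.28 at ZT15; adjusted p = 0.0215, 0.0363 and 0.0363), none of which passed without the ZT3 array (adjusted p = 0.0662, 0.143 and 0.197). In RNAi-labelled heads *alrm* and *Gs2* fell, at -0.80 and -0.26 (adjusted p = 0.0369 and 0.0403). Muscle markers (6 of 9) read 8.98 and 9.39 in control, 9.50 and 9.58 in over-expression-labelled and 9.11 and 9.02 in RNAi-labelled heads. Their median difference from control in over-expression-labelled heads was -0.05 (-0.13 at ZT15), and 1 of the 6, *Act88F*, passed. *Act88F*, a flight muscle actin gene, was at 9.63 and 7.67 in over-expression-labelled heads and at 5.66 to 6.23 on the other 4 arrays. It rose by 2.76 against control (1.56 at ZT15, adjusted p = 0.034), and the difference was 1.67 without the ZT3 array of that genotype. Those other 4 arrays lay below the filter of 6.79, so *Act88F* was tested only through its over-expression-labelled signals. Its call against control was lost with no filter, so the test does not stand apart from the choice of filter. Of the 7 digestive tract markers 6 lay below the filter. The other, *LManII*, rose by 0.63 in over-expression-labelled heads against control (0.66 at ZT15, adjusted p = 0.0211; 0.0772 without the ZT3 array), and stood 0.91 above RNAi-labelled heads (adjusted p = 0.00248), the same order of genotypes as in *vkg* or *Ppn*. At ZT15 the 7 markers averaged 5.81 in over-expression-labelled and 5.17 in control heads, with a median difference of 0.50, beside 0.94, 0.62 and 0.51 for *Hml*, *vkg* and *Ppn*. Their part in these differences was not tested.

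**Figure D5:**
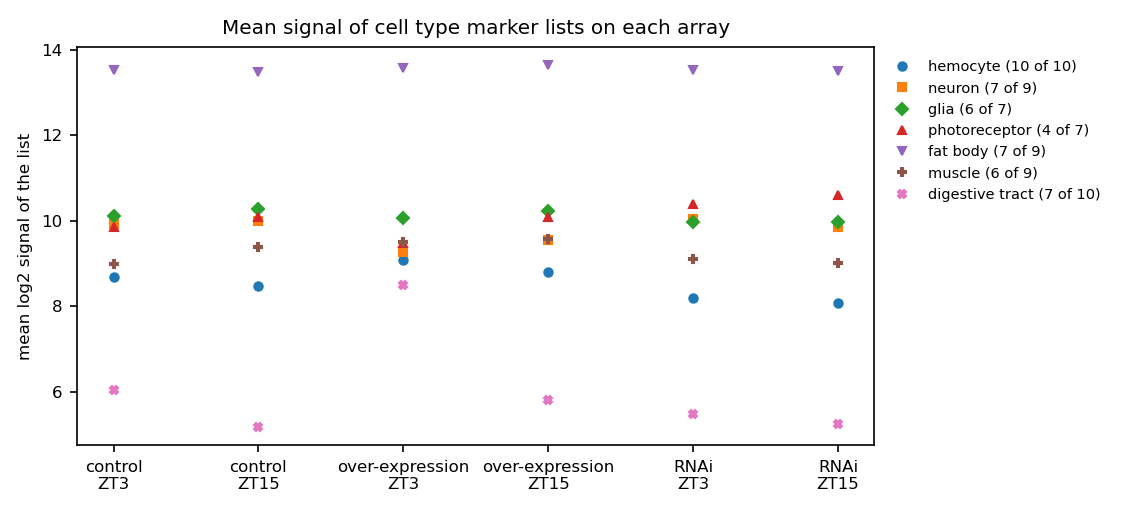
Mean log2 signal (vertical axis) of 7 marker lists on the 6 arrays, with the number of listed genes that had a probe set; levels are compared between arrays within a list, not between lists. The digestive tract markers lie at 8.50 on the over-expression-labelled ZT3 array and at 5.17 to 6.03 elsewhere, and the hemocyte list lies lowest on the RNAi-labelled arrays.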

How the data were processed

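The authors hybridised head RNA to Affymetrix Drosophila 2.0 arrays, per the labels' protocols. The deposited table holds 1 log2 signal per probe set and array (a scale read from its values), and the submitters' processing notes name Expression Console of Affymetrix; the summarisation and normalization are not given in the sources used here. All 10956 deposited probe sets reach 4.00 on at least 1 array. Of them 9286 had 1 gene, 276 several and 1394 none listed; symbols were updated by gene ID through RefSeq's Release 6 table (9260 matched). The brightest probe set stood for its gene. Tests took the 5489 genes whose mean signal passed 6.79, the 40th percentile of all probe sets. limma 3.58.1 in R 4.3.3 fitted additive terms for genotype and time to the 6 arrays together (lmFit, eBayes with a trend; 2 residual and 3.8 prior degrees of freedom), two-sided, with Benjamini-Hochberg adjustment over all genes and a threshold of 0.05. The fit was tested on simulated data. The number of arrays limits the precision. The 10 genes and all lists were chosen with earlier results of these data known. Up to 4 genes past the threshold with the largest differences are named per list and comparison, and 5 genes of like profile. Alternatives were other filters, probe set rules, covariates, arrays and scalings. No sequence was used. Figures were drawn with matplotlib 3.10.9.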

Additional observations from a re-analysis of the deposited data

Results flagged for a closer look

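*PPO1* was flagged because its night-day difference had opposite signs between genotypes, at least 0.3 log2 units on each side. ZT15 minus ZT3 was 0.43 in the RNAi-labelled genotype, -0.69 in control and -0.61 in the over-expression-labelled genotype, which puts the RNAi-labelled difference 1.11 above that in control and 1.04 above that in the over-expression-labelled genotype. Each of these differences comes from 1 array per time, and the difference between them was not tested. Groups of 2 arrays are too small for a check of single outlying arrays.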

How the results depend on the processing

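With no term for the other factor, genes called were 169 (against 635) between over-expression-labelled and control, 413 (934) between RNAi-labelled and control and 4 (83) between times (188 at an unadjusted p under 0.05), and the 9 genes followed here gave 1 (of 3), 1 (of 7) and, between the altered genotypes, 6 (of 8); the calls of the 6 further lists went from 13 to 3 and from 10 to 4 against control and from 26 to 20 between the altered genotypes. With 1 array left out, all calls by limma ran from 0 (1216 at an unadjusted p under 0.05) to 873, from 3 to 1305, from 775 to 1777 and from 6 to 108 in the order of over-expression-labelled against control, RNAi-labelled against control, both altered genotypes and times; calls among the 9 ran from 0 to 4, 0 to 8, 6 to 8 and 0 to 1 (*PPO1*). Under the other alternatives the calls among these genes were 3 to 4, 5 to 8, 6 to 9 (with *eater*, unfiltered) and 0. *NimC1* and *LanB1* fall below a filter at the 60th percentile. No called difference of the 10 genes reversed in any alternative run. Centring on 33 ribosomal protein genes moved the share of calls that were higher from 36.7% to 59.1% between RNAi-labelled and control, and from 51.3% to 36.0% between the altered genotypes, where the median of all genes went from -0.02 to -0.12. There *PPO1*, *vkg* and *Ppn* lost their calls against control (adjusted p = 0.0568, 0.0558 and 0.0646) and *Hml* was called higher (0.049); relative to that shift the 8 genes of the direct comparison kept theirs. With the mean of its probe sets, *Tsf1* reversed to -0.35 between the altered genotypes and passed at 1.43 between RNAi-labelled and control. The labels give no replicate numbers, so arrays of different genotypes were matched by time only, through the time term of the fit.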
